A study of Homo sapiens with 4 samples.

Results

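C/D box small nucleolar RNAs (snoRNAs) were followed in K562 cells after knockdown of DROSHA. They were taken as the rows of the authors' deposited table whose symbol starts with SNORD and whose mean over the 4 libraries was at least 5 normalised reads. This gave 98 rows with 95 distinct symbols, out of 370 SNORD rows and 58037 rows in all. The members were thus selected on their mean, which is given below as a description. A second minimum of 25.7 normalised reads, the lowest mean for which the authors give an adjusted p, kept 34 of the 98 rows. The data are total RNA sequencing of K562, a human erythroleukaemia line, from 2 control libraries transduced with a non-specific CRISPR lentivirus and 2 knockdown libraries transduced with a CRISPR lentivirus against DROSHA. Cells of both groups were selected after infection in puromycin at 2.5 ng/μl and lay between passages 25 and 30, per the labels. The labels do not say whether the 2 libraries of a group came from separate infections or clones, so the spread between them may be technical. In the authors' deposited table, DROSHA stood at -1.15 on the log2 scale (adjusted p 8.11e-14, DESeq2), and the direction of every fold change was read from that sign.

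C/D box snoRNAs are short nucleolar RNAs that pair with ribosomal RNA (rRNA) and direct 2′-O-methylation of the paired base by fibrillarin, the methyltransferase of their ribonucleoprotein. A C box near the 5′ end and a D box near the 3′ end fold together into the site where the core proteins SNU13, NOP56, NOP58 and fibrillarin assemble. In human cells nearly all of them are cut from introns of host genes, many of which encode ribosomal proteins or are non-coding snoRNA host genes, while U3, U8 and U13 have promoters of their own. DROSHA, with DGCR8, crops the primary transcripts of microRNAs, which are a separate class of small RNA.

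The largest group from 1 host gene was that of SNHG1, a non-coding gene on chromosome 11 with 7 member rows within it. All 7 also overlap an annotated exon of a gene that contains them. Their sequences are printed in host order because these rows hold the smallest adjusted p of any C/D box row. Capitals mark a C box (TGATGN within the first 25 bases) and a D box (CTGA within the last 24 bases), in DNA letters, 5′ to 3′, from GENCODE release 29 on hg38.
SNORD25 (chr11:62855564-62855632, minus strand): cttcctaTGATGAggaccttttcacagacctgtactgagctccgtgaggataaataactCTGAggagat
SNORD26 (chr11:62855292-62855366, minus strand): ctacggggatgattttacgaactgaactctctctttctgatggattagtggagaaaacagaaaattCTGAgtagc
SNORD27 (chr11:62855012-62855083, minus strand): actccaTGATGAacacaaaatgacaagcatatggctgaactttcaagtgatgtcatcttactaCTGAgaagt
SNORD28 (chr11:62854621-62854695, minus strand): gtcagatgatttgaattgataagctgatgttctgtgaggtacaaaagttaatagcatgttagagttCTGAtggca
SNORD22, abundant row (chr11:62854161-62854285, minus strand): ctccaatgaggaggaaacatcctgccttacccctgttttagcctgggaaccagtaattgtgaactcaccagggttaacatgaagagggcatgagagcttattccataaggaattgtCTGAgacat
SNORD30 (chr11:62853663-62853732, minus strand): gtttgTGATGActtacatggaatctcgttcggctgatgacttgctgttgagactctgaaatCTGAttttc
SNORD22, scarce row (chr11:62852910-62853035, minus strand): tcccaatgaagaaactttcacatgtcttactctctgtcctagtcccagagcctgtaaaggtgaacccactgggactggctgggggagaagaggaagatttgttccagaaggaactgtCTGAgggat
For comparison, 3 of the 5 most abundant rows (SNORD58B, SNORD49B, SNORD45A) and 3 of the 4 rows below 0 among the 34 with an adjusted p (SNORD11, SNORD50B, SNORD12B) are printed next.
SNORD58B (chr18:49491664-49491729, minus strand): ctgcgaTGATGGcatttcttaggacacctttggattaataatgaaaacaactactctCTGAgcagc
SNORD49B (chr17:16439505-16439576, plus strand): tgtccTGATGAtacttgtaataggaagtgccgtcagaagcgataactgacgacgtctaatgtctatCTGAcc
SNORD45A (chr1:75787889-75787972, plus strand): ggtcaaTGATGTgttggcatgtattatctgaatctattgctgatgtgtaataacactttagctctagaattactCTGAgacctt
SNORD11 (chr2:202293051-202293134, plus strand): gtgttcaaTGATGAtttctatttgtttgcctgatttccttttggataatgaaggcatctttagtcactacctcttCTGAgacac
SNORD50B (chr6:85677589-85677658, minus strand): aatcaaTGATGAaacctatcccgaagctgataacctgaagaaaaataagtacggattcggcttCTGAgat
SNORD12B (chr20:49280319-49280409, plus strand): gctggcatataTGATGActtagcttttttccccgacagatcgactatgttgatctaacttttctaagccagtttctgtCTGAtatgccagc
Among the 98 members, 83 held the C motif and 94 held the D motif in these windows, and 82 (83.7%) held both. Of the other 272 SNORD rows, 177 (65.1%) held both. Of 420 H/ACA box snoRNA rows (symbols starting with SNORA), 2 (0.476%) held both. On the reverse strand both motifs were found in 0 members and in 2 of the 420 H/ACA rows. SNORD26, SNORD28 and both SNORD22 rows have no match to the C motif in the window.

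Of the 370 SNORD rows, 212 were listed at 0, 60 lay above 0 and below 5, and 98 were members. The rows of the imprinted clusters SNORD113 to SNORD116 made up 128 of the 370. Of these, 119 were listed at 0 and in the authors' deposited table the highest mean among them was 0.580 normalised reads. The member means ran from 5.01 (SNORD42A) to 229 (SNORD58B) with a median of 18.9 normalised reads. Just below the first minimum lay SNORD67 at 4.98 and a second SNORD19B row at 4.99, and just above it lay SNORD42A at 5.01 and SNORD59A at 5.06 in the authors' deposited table. Around the second minimum, SNORD16 at 22.9 and SNORD60 at 24.2 had no adjusted p, and SNORD30 at 25.8 and SNORD14A at 26.3 had one. Member rows had a median length of 78.5 bases, and 95 of 98 were shorter than 150 bases. Standard total RNA libraries take up such short RNAs poorly, and reads over a row cannot be told from reads over the unspliced intron around it. In 70 of the 98 rows the interval also overlaps an annotated exon of a gene that contains it on the same strand, and 5 rows overlap another small row. Both SNORD38B rows are among the 5. They start at the same base of chromosome 1, with lengths of 67 and 69 bases, so the same locus is counted more than once among the members. Their log2 fold changes in the authors' deposited table were both below 0 (-0.22 and -0.13). The counting of strand and of overlapping genes is not given in the sources used here.

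Levels in single libraries were recovered as whole reads from the means of the authors' deposited table, and the libraries are named control A, control B, knockdown A and knockdown B. These letters do not stand for the replicate numbers of the labels. The size factors of the 4 libraries were 1.23, 0.918, 1.09 and 0.813 in that order. Knockdown A stood apart from the other 3 libraries across the C/D box rows. Over the 98 members it held 5283 reads, against 3549 in control A, 2788 in control B and 2814 in knockdown B. After scaling by the size factors, the summed level was 4835 normalised reads in knockdown A, 3460 in knockdown B, 3037 in control B and 2885 in control A. The highest of the 4 libraries was knockdown A in 69 of the 98 rows, knockdown B in 13, control B in 12 and control A in 4. Over all 8926 rows with a mean of 5 to 300, knockdown A was highest in 34.9%, knockdown B in 23.7%, control B in 21.04% and control A in 20.4%. In bulk RNA, a change in the number of molecules per cell and a change in the make-up of the culture cannot be told apart. K562 markers were abundant, with all 12 listed genes at means between 2901 and 156200 normalised reads. Of 12 markers of other cell types, 4 lay under 5 (MS4A1 at 0), while EPCAM had a mean of 2755 normalised reads and the next, PECAM1, 192, in the authors' deposited table.

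C/D box rows were mostly higher in the knockdown group, and none passed the test. In the authors' deposited table, 85 of the 98 rows had a log2 fold change above 0 and 13 below, with a median of 0.53, an interquartile range from 0.14 to 1.01 and limits of -0.66 and 2.32. Over all 8926 rows with means of 5 to 300, 58.3% lay above 0 and the median was 0.09. At an adjusted p under 0.05 (DESeq2), the authors' deposited table called 0 of the 34 C/D box rows with an adjusted p, against 50 of 14231 rows in all (0.351%). The smallest adjusted p was 0.184, for SNORD26. Undoing the Benjamini-Hochberg adjustment of the authors' deposited table (DESeq2) gives only an upper limit for each unadjusted p. This limit was under 0.05 for 3 of the 34 rows (SNORD26, SNORD2 and the abundant SNORD22 row), all higher in the knockdown. It was under 0.05 for 6.80% of all tested rows in either direction, and both counts are minimums. Limma on the recovered levels called 0 of the 98 at an adjusted p under 0.05, against 17 of 8926 rows (0.190%), and its smallest adjusted p was 0.155, again for SNORD26. At an unadjusted limma p under 0.05, 22 of the 98 rows (22.4%) were higher in the knockdown libraries, against 5.80% of all rows, and 0 of the 98 were lower. A mean over all 4 libraries lets a row become a member through its knockdown level alone, and 15 of the 98 rows had a control mean below 5, while 0 had a knockdown mean below 5. Among the other 83 rows, 17 (20.5%) were higher at that limma p and 0 were lower. Of the 8398 rows of the same range with a control mean of at least 5, 5.32% were higher. The share of all rows lower at that p is not given here, so neither count of 0 lower can be set against it.

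Both knockdown libraries lay above both control libraries in 35 of the 98 rows (35.7%), against 23.7% of all rows of mean 5 to 300. Of the 83 rows with a control mean of at least 5, 25 (30.1%) were separated in this way, against 21.4% of all such rows. Both lay below both controls in 1 row, SNORD125, against 14.0% of all rows. With 2 libraries against 2, the smallest p that a two-sided exact permutation test of a single row allows is 0.333. Knockdown A exceeded both controls in 75 of the 98 rows, against 44.9% of all rows. Knockdown B did so in 42 of the 98, against 37.4% of all rows. Without knockdown A, 59 of the 98 rows (60.2%) were above 0 with a median log2 ratio of 0.20, beside 51.9% and 0.02 over all rows. Without knockdown B, 85 rows were above 0 with a median of 0.80, and limma called 5 of the 98 rows, against 0.683% of all rows in the same fit. Those 5 were both SNORD22 rows, SNORD25, SNORD26 and SNORD45B, and the lone knockdown library is assumed there to vary like the controls.

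**Figure D1:**
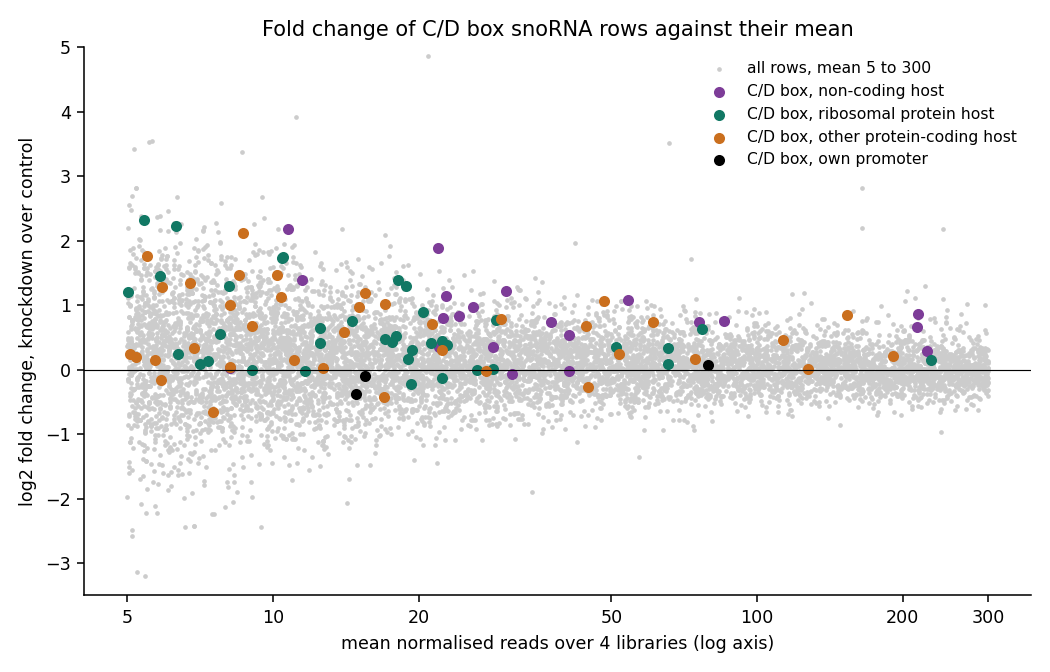
Log2 fold change of knockdown over control (vertical axis) against the mean normalised reads over 4 libraries (horizontal log axis), both from the authors' deposited table. Grey points are the 8926 rows of mean 5 to 300, and coloured points are the 98 C/D box rows by class of host gene, of which 85 lie above 0.

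At the minimum of 25.7 normalised reads, 30 of the 34 rows were above 0 in the authors' deposited table, with a median of 0.41 and limits of -0.27 and 1.21. All rows from that minimum to 300 had 56.2% above 0 and a median of 0.05. Among the 34, the 2 knockdown libraries lay above both controls in 11 rows (32.4%), against 22.8% of all rows of that range. They lay below both controls in 0 of the 34, against 14.0% of all rows of mean 5 to 300. The 11 were SNORD2, SNORD22 (the abundant row), SNORD26, SNORD27, SNORD30, SNORD32A, SNORD49A, SNORD49B, SNORD63, SNORD87 and SNORD101. Knockdown A was the highest library in 25 of the 34 rows. Without it, 21 of the 34 (61.8%) were above 0, with a median log2 ratio of 0.16. The 8 rows with means of at least 100 were all above 0, with a median of 0.38 and limits of 0.01 and 0.86, beside 51.4% and 0.01 over all rows from 100 to 300. When rows were instead taken by a control mean of at least 5, there were 83 SNORD rows, all of them members, of which 70 were above 0, with a median of 0.42, beside 53.9% and 0.04 over the 8684 rows of all kinds taken in that way.

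**Figure D2:**
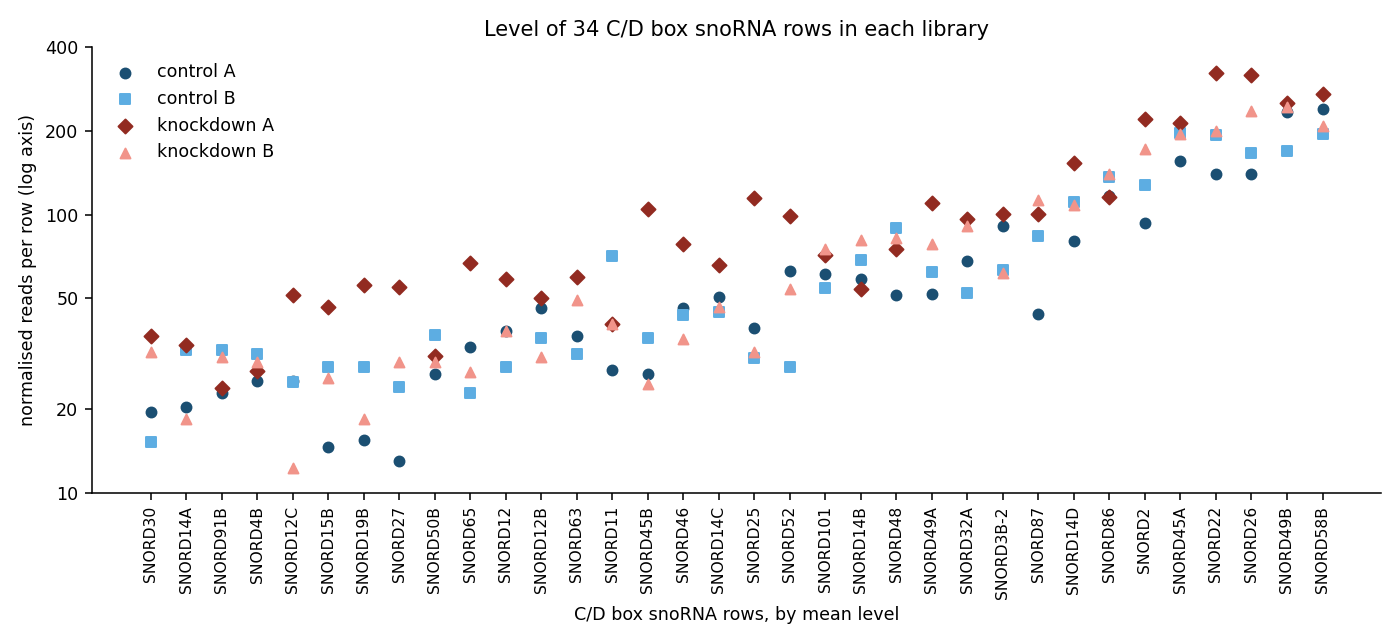
Normalised reads per row (vertical log axis) in each of the 4 libraries for the 34 C/D box rows with an adjusted p, ordered by mean. Dark diamonds (knockdown A) are the highest point in 25 of the 34 rows, while the light triangles (knockdown B) exceed both controls in 13.

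The SNHG1 rows were higher in the knockdown libraries as a group, though none passed the adjusted threshold in the authors' deposited table. All 7 had a log2 fold change above 0 there, between 0.66 and 1.89 with a median of 1.08. In 6 of the 7 both knockdown libraries lay above both controls, against 23.7% of all rows of mean 5 to 300. These 7 rows were picked out after their values were seen. The host gene SNHG1, at a mean of 12570 normalised reads, stood at 0.15 on the log2 scale in the authors' deposited table (adjusted p 0.919, DESeq2). Summed over the 7 rows, control A held 364, control B 449, knockdown A 918 and knockdown B 559 normalised reads. Without knockdown A, 6 of the 7 rows stayed above 0 with a median log2 ratio of 0.62, and the exception was SNORD25 at -0.12. Without any other single library, all 7 were above 0.

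SNORD26, a guide for methylation of large-subunit rRNA, had 139.8 and 167 normalised reads in controls A and B, and 318 and 236 in knockdowns A and B. The recovered reads behind these levels were 172, 153, 347 and 192. The groups did not overlap, and knockdown A was the higher of the 2 knockdown libraries. Limma on log2(level + 1) gave a difference of 0.84 on the log2 scale with 95% limits of 0.40 and 1.28 (adjusted p 0.155). The abundant SNORD22 row had 139.8 and 194 normalised reads in controls A and B and 322 and 200.4 in knockdowns A and B. SNORD22 (U22) is known from Xenopus as a snoRNA needed for processing of small-subunit rRNA. The groups were separated by a narrow margin, with knockdown B close to control B, and the log2 fold change in the authors' deposited table was 0.66 (adjusted p 0.610, DESeq2). The other row of the same name, which has its own sequence and place in the host, had 8.94 and 9.80 normalised reads in the controls and 54.0 and 14.8 in knockdowns A and B. Its groups did not overlap, but the gap to knockdown B was small beside that to knockdown A, and limma gave a log2 difference of 1.51 (95% limits 0.51 and 2.50, adjusted p 0.426).

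SNORD27, a guide for small-subunit rRNA, had 13.0 and 23.97 normalised reads in controls A and B and 54.9 and 29.5 in knockdowns A and B. SNORD30, a guide for large-subunit rRNA, had 19.5 and 15.3 in the controls and 36.6 and 32.0 in the knockdowns. In both rows the groups did not overlap, and SNORD30 was the one in which the 2 knockdown libraries lay close together. Their log2 fold changes in the authors' deposited table were 1.21 (adjusted p 0.714, DESeq2) for SNORD27 and 0.98 (adjusted p 0.831) for SNORD30. SNORD28, a guide for small-subunit rRNA, had 4.06 and 8.72 normalised reads in the controls and 18.3 and 14.8 in the knockdowns, from 5, 8, 20 and 12 reads. SNORD25, another small-subunit guide, had 39.0 and 30.5 in controls A and B, 114.4 in knockdown A and 32.0 in knockdown B. Here the groups overlapped, since knockdown B lay between the controls, and the log2 fold change of 1.08 in the authors' deposited table (adjusted p 0.714, DESeq2) came with a single high library.

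The other rows in non-coding hosts showed both patterns. Together with the SNHG1 rows, 21 members had a non-coding host, of which 19 were above 0 in the authors' deposited table, with a median of 0.75. Without knockdown A, 14 of the 21 were above 0, with a median log2 ratio of 0.46. SNORD49A and SNORD49B, a pair of related guides for large-subunit rRNA in LRRC75A-AS1, differed in size. SNORD49A had 52.0 and 62.1 normalised reads in the controls and 109.8 and 78.7 in the knockdowns, and SNORD49B had 233 and 169.9 in the controls and 253 and 243 in the knockdowns. Both pairs of groups were separated, SNORD49A by the wider margin, and the authors' deposited table gives log2 fold changes of 0.73 (adjusted p 0.747, DESeq2) and 0.29 (adjusted p 0.908). Their host LRRC75A-AS1 stood at -0.02 in the authors' deposited table. SNORD104 in SNHG25 had 6.50 and 1.09 normalised reads in the controls, 29.3 in knockdown A and 6.15 in knockdown B. Its groups overlapped, and the log2 fold change of 2.19 in the authors' deposited table rested on knockdown A, since the log2 ratio was 0.58 without it.

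SNORD12B and SNORD50B had levels that crossed between the groups. SNORD12B, a large-subunit guide in ZFAS1, had 46.3 and 36.0 normalised reads in the controls and 50.3 and 30.7 in the knockdowns, with a log2 fold change of -0.02 (adjusted p 0.999, DESeq2) in the authors' deposited table. SNHG5 was the 1 host gene of 52 that passed the threshold, against 0.351% of all tested rows. SNHG5 stood at 0.72 on the log2 scale in the authors' deposited table (adjusted p 1.07e-04, DESeq2), with a mean of 6607 normalised reads. SNORD50B, a large-subunit guide and the member row in SNHG5, had 26.8 and 37.0 normalised reads in the controls and 31.1 and 29.5 in the knockdowns. Both knockdown libraries fell between the controls, and the limma difference was -0.06 (95% limits -0.81 and 0.70) on the log2 scale. GAS5, another well-known snoRNA host, stood at 0.13 on the log2 scale in the authors' deposited table (adjusted p 0.943, DESeq2), and 0 SNORD rows of the table lay within it.

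Ribosomal protein genes hosted 37 members, of which 33 were above 0 in the authors' deposited table, with a median of 0.42. Without knockdown A, 20 of the 37 were above 0, and the median was 0.25. In 12 of the 37 both knockdown libraries lay above both controls, against 23.7% of all rows of mean 5 to 300. Of these, SNORD21, SNORD33, SNORD35B, SNORD42A, SNORD83A and SNORD83B had control means below 5. Their knockdown level brought them over the minimum. SNORD58B, a large-subunit guide in RPL17 (chr18) and the highest member per length at 346 normalised reads per 100 bases, had 239.8 and 195 normalised reads in the controls and 271 and 209 in the knockdowns. The groups overlapped, and the limma difference was 0.14 on the log2 scale (95% limits -0.29 and 0.56). SNORD58C, which lies elsewhere in the same host, had 13.0 and 8.72 normalised reads in the controls and 33.9 and 19.7 in the knockdowns. Its groups did not overlap, with a limma difference of 1.20 on the log2 scale. The 4 rows of RPL13A were all above 0, between 0.56 and 1.75 in the authors' deposited table, while the host stood at -0.11. SNORD32A among them had 68.3 and 52.3 normalised reads in the controls and 96.1 and 91.0 in the knockdowns, both knockdown libraries being higher than both controls. SNORD35A had 9.75 and 11.98 in the controls, 36.6 in knockdown A and 0 in knockdown B, so its 2 knockdown libraries were the highest and the lowest of the 4. Its limma difference was -0.95 on the log2 scale. Without knockdown A, the log2 ratios of SNORD35A (-3.57) and SNORD34 (-0.66) were below 0, while those of SNORD32A (0.59) and SNORD33 (0.51) stayed above.

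Other protein-coding genes hosted 37 members, of which 32 were above 0, with a median of 0.58 in the authors' deposited table. Without knockdown A, 25 of the 37 were above 0, and the median was 0.15. SNORD2, a large-subunit guide in EIF4A2 (chr3:186784796-186784864, plus strand), had 93.5 and 127 normalised reads in the controls and 221 and 172 in the knockdowns. The groups did not overlap, with a limma difference of 0.83 on the log2 scale (95% limits 0.34 and 1.33, adjusted p 0.316). SNORD45B in RABGGTB had 26.8 and 36.0 in the controls, 105 in knockdown A and 24.6 in knockdown B. As in SNORD25, 1 library set the log2 fold change, which was 1.07 (adjusted p 0.780, DESeq2) in the authors' deposited table and -0.34 without knockdown A. SNORD45A, a small-subunit guide from the same host, had 156 and 197 normalised reads in the controls and 213 and 195 in the knockdowns, with overlapping groups and a log2 fold change of 0.22 in the authors' deposited table. SNORD86 in NOP56 had 117 and 136 in the controls and 115.3 and 140.2 in the knockdowns, and its log2 fold change of 0.01 in the authors' deposited table was the smallest of the 8 rows with means of at least 100. SNORD11, a small-subunit guide in NOP58, had the lowest fold change of the 34, at -0.27 (adjusted p 0.971, DESeq2) in the authors' deposited table. Its levels were 27.6 and 70.8 normalised reads in controls A and B and 40.3 and 40.6 in the knockdowns, so the 2 knockdown libraries were alike and lay between the controls. SNORD125 in AP1B1 had 6.50 and 11.98 in the controls and 5.49 and 6.15 in the knockdowns, the 1 row with both knockdown libraries below both controls, at a level near the lower minimum. Its interval also overlaps the row of the annotated microRNA MIR3653, and how reads in the shared stretch were counted is not given.

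The SNORD14 rows and the rows with promoters of their own had log2 fold changes between -0.38 and 0.46 in the authors' deposited table, and their groups overlapped except in SNORD14E, where knockdown B (20.9 normalised reads) lay just above control A (20.3). The SNORD14 rows (U14, which pairs with small-subunit rRNA and is needed for its processing) lie within RPS13 and HSPA8. SNORD14A had 20.3 and 32.7 normalised reads in the controls and 33.9 and 18.4 in the knockdowns, and SNORD14B had 58.5 and 68.6 in the controls and 54.0 and 81.1 in the knockdowns. In both rows of RPS13 the knockdown libraries bracketed the controls, with log2 fold changes of 0.00 and 0.08 in the authors' deposited table. SNORD14C, SNORD14D and SNORD14E in HSPA8 had log2 fold changes of 0.25, 0.46 and 0.31 in the authors' deposited table, while their host stood at -0.26. The most abundant of these, SNORD14D, had 80.5 and 111 normalised reads in the controls and 153 and 108 in the knockdowns. Its groups overlapped, since knockdown B was below control B.

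Rows with promoters of their own were 3, of which 1 was above 0 in the authors' deposited table. SNORD3B-2, the U3 row of 791 bases that takes in sequence around the snoRNA itself, had 91.0 and 63.2 normalised reads in the controls and 101 and 61.5 in the knockdowns. The groups overlapped entirely, and the log2 fold change was 0.07 (adjusted p 0.994, DESeq2) in the authors' deposited table. U3 is needed for the early cleavages that release small-subunit rRNA, and its other rows (SNORD3A, SNORD3B-1, SNORD3C and the SNORD3D rows) were listed at 0 in the authors' deposited table. How reads that map to several near-identical copies were counted is not given in the sources used here. SNORD118 (U8, which acts in maturation of large-subunit rRNA) had 21.1 and 10.9 in the controls and 20.1 and 9.84 in the knockdowns, each group spanning nearly the same range. SNORD13 (U13, which directs acetylation of small-subunit rRNA) had 13.0 and 20.7 in the controls and 14.6 and 11.1 in the knockdowns, and its log2 fold change was -0.38 in the authors' deposited table.

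Host genes were centred near 0. A host on the same strand was found for 95 of the 98 rows, 52 genes in all, each with an adjusted p. In the authors' deposited table, 22 of the hosts were above 0 and 30 below, with a median of -0.06 and limits of -0.40 and 0.72. Over all tested rows, 45.1% were above 0 and the median was -0.03. The C/D box row was higher than its host in 83 of the 95 pairs, with a median difference of 0.62 on the log2 scale. Among the 33 rows with an adjusted p and a host, 28 were higher than the host, with a median difference of 0.51. In 47 pairs the row was above 0 and the host below. Host levels in single libraries were not recovered, so these differences are not given without knockdown A. Across the 95 pairs, which are not independent where rows share a host, Pearson's r between the 2 fold changes was 0.176 and Spearman's rho 0.223, as a description. The 70 rows that overlap an annotated exon of a gene that contains them had a median of 0.64 in the authors' deposited table. The other 28 had a median of 0.35. Both knockdown libraries lay above both controls in 28 of the 70 rows (40.0%). They did so in 7 of the other 28 (25.0%), against 23.7% of the 8926 rows of all kinds. Each row's level was also divided by its own mean. In the other 28, the median was 0.859 in control A, 0.843 in control B, 1.48 in knockdown A and 0.819 in knockdown B. In the 70 these medians were 0.725, 0.763, 1.44 and 0.977 in that order. A difference between the 70 and the other 28 was not tested. Of the rows without a host, SNORD118 is among the 70, and SNORD13 and SNORD3B-2 are among the 28.

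**Figure D3:**
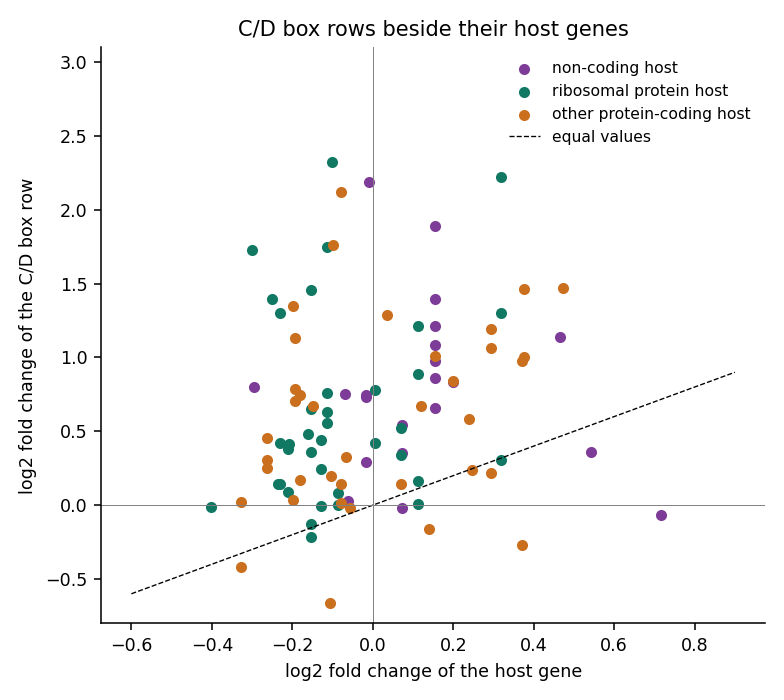
Log2 fold change of each C/D box row (vertical axis) against that of its host gene (horizontal axis), knockdown over control, both from the authors' deposited table. Of the 95 pairs, 83 lie above the dashed line of equal values, and the host at the far right is SNHG5 with SNORD50B.

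The genes for the proteins of C/D box ribonucleoproteins showed no call. The list of 29 genes for core proteins, assembly factors and processing enzymes was tested in full in the authors' deposited table, where 0 passed an adjusted p of 0.05 (DESeq2) and 0 passed 0.1, beside the 0.351% of all tested rows at 0.05. Of the 29 genes in the authors' deposited table, 9 were above 0 and 20 below, with a median of -0.06, beside 45.1% above 0 and a median of -0.03 over all tested rows. NOP58, a core scaffold protein, was the highest at a log2 fold change of 0.37 with the smallest adjusted p of the list (0.414, DESeq2) in the authors' deposited table. FBL, which encodes fibrillarin, stood at 0.37 (adjusted p 0.512, DESeq2), NOP56 at -0.08, SNU13 at -0.13 and the U3 protein RRP9 at -0.27 in the authors' deposited table. The lowest was RUVBL2, an ATPase of the assembly complex, at -0.31.

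Median levels of other classes of rows, short or intronic and otherwise, were also highest in knockdown A. The level of each row was divided by its mean over the 4 libraries, and the median over the 98 C/D box rows was 0.806 in control A, 0.781 in control B, 1.45 in knockdown A and 0.943 in knockdown B. For the 34 rows with an adjusted p the medians were 0.828, 0.857, 1.32 and 0.952. For 87 H/ACA box and Cajal body rows of the same range they were 0.908, 0.877, 1.32 and 0.912, and 61 of the 87 were above 0 in the authors' deposited table, with a median log2 fold change of 0.35. For 311 sense-intronic rows, which are annotated long non-coding transcripts within introns of other genes and not snoRNAs, they were 0.842, 0.865, 1.29 and 0.954, and 239 were above 0 with a median of 0.41. For 292 other rows of 200 bases or fewer they were 0.889, 0.873, 1.14 and 1.06. For 1043 rows of long intergenic non-coding RNA (lincRNA) they were 0.949, 0.948, 1.07 and 0.980, and 60.0% were above 0 with a median of 0.12. For 3843 protein-coding rows of the range, the 4 medians lay between 0.959 and 1.01, with knockdown A the highest. The part of these shared levels in the C/D box values was not tested, and neither was a difference between the C/D box rows and these classes.

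**Figure D4:**
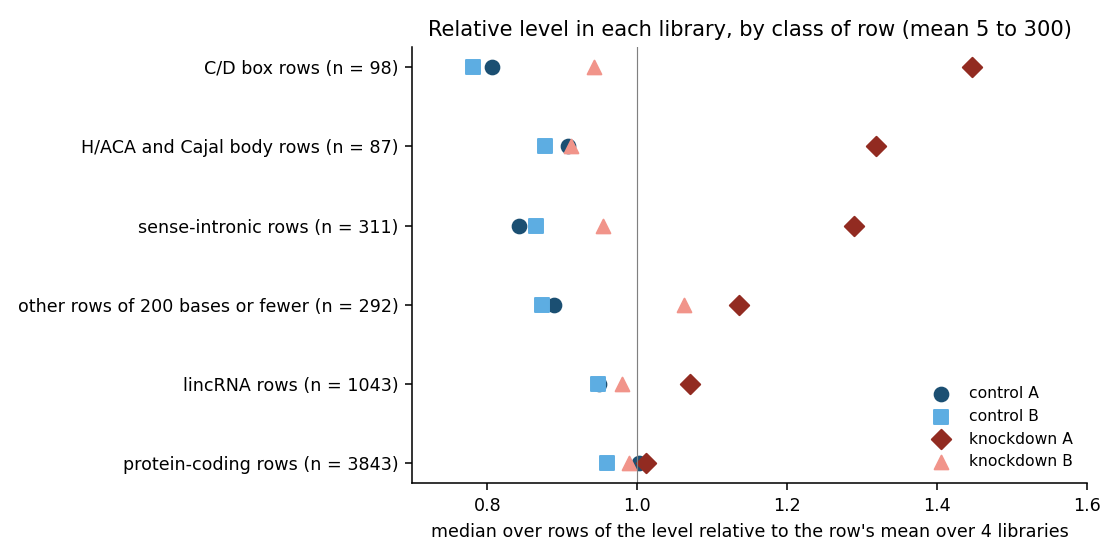
Median over rows of the level in a library relative to the row's own mean over 4 libraries (horizontal axis), for 6 classes of rows with means of 5 to 300 (vertical axis). Knockdown A stands at 1.45 for C/D box rows, 1.32 for H/ACA and Cajal body rows and 1.29 for sense-intronic rows, against 1.01 for protein-coding rows, while knockdown B stands at 0.943, 0.912 and 0.954 for the first 3 classes.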

How the data were processed

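Per the file headers, the authors deposited 1 table with, for each row, a mean normalised read signal over 4 libraries, the log2 fold change of the comparison, and its adjusted p-value (DESeq2). A further log2 column deposited by the authors was not used, since it is empty for every SNORD row. The submitters' processing notes name STAR 2.6.0a, Bowtie2 2.3.4.1, DESeq2 1.24.0 and hg38. Which counter and strand setting they used is not given in the sources used here. The authors' values were used as deposited at an adjusted p under 0.05, because the table has 0 columns for single libraries and the planned test on counts per library could not be run.

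Reads per library were recovered because the mean times 4 is a sum of whole reads, each weighted by the step of its library. The 4 steps were read from rows with 1 read in 1 library. At a tolerance of 1e-11, all 20955 rows with means above 0 and under 300 had exactly 1 solution. The log2 ratio of recovered group means differed from the deposited log2 fold change by a median of 0.00691 and at most 0.125 over 8926 rows. The recovery of reads did not use that fold change, but the grouping of libraries did, so this is no separate check of the grouping. Steps were assigned to a group by the sign of the deposited fold change and not to replicate numbers. These 8926 rows (mean 5 to 300) were tested with limma 3.58.1 (R 4.3.3) on log2(level + 1), trended variance, Benjamini-Hochberg adjustment. Recovery and test were run on simulated data, in which rows varied independently and no library had a shift of its own. That simulation cannot show how limma behaves where a library stands apart, as knockdown A does here. Total depth per library is unknown, since rows of higher means were not recovered.

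Hosts, coordinates and sequences came from GENCODE release 29 (Python 3.11.15, pandas 2.3.3). Members, lists and the rule for named rows were chosen with earlier results of these data known. The rule took DROSHA and DGCR8, U3, U8, U13 and SNORD14 rows, SNORD rows of SNHG5 and GAS5, the 5 highest and 5 lowest fold changes and the 5 highest means among rows with an adjusted p, and rows at each minimum. Rows of SNHG1 and the other rows named were added after their values were seen. DGCR8 stood at 1.72 on the log2 scale in the authors' deposited table (adjusted p 1.23e-27).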

Additional observations from a re-analysis of the deposited data

How the results depend on the processing

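No paired analysis was possible because the recovered libraries cannot be tied to the replicate numbers of the labels. The count of 0 called C/D box rows stayed at 0 with an adjusted p of 0.1 or 0.01, with a minimum fold change, with limma at a pseudocount of 1 or, added after seeing the data, 0.5, and ranged from 0 to 5 in limma without 1 library, with 5 called without knockdown B. The median log2 fold change of the 98 rows (0.53) ranged from 0.20 (without knockdown A) to 0.80 (without knockdown B), and stayed within 1.5 times of 0.53 at the 2 higher minimums, after re-centring, with 1 value per host, without overlapping rows, without families of near-identical copies and, added after seeing the data, for rows with a control mean of at least 5. Leaving out 1 library in turn moved the log2 ratio across 0 in 15 of the 25 named rows. In 10 of them this happened without knockdown A, which gave the lowest value for SNORD3B-2 (-0.32 to 0.38), SNORD14A (-0.50 to 0.35), SNORD14C (-0.02 to 0.46), SNORD16 (-0.30 to 0.81), SNORD25 (-0.12 to 1.69), SNORD45B (-0.34 to 1.71), SNORD58B (-0.06 to 0.32) and SNORD60 (-0.13 to 1.34). The ranges of the others were -0.49 to 1.64 for SNORD59A, -0.25 to 0.25 for SNORD91B, -0.28 to 0.17 for SNORD50B, -0.41 to 0.28 for SNORD12B, -0.79 to 0.53 for SNORD11, -0.23 to 0.35 for SNORD14B and -0.65 to 0.43 for SNORD118. The 25 rows are those taken by the rule. Among rows named outside it, SNORD35A ranged from -3.57 to 1.66, SNORD34 from -0.66 to 1.08 and SNORD86 from -0.13 to 0.15. The sign also changed with limma for SNORD14A (-0.04 at both pseudocounts) and after re-centring by -0.03 for SNORD12B (0.01) and SNORD91B (0.00). For SNORD35A, limma at a pseudocount of 1 gave -0.95, beside 0.76 in the authors' deposited table. Limma compares means of log2 levels, while the deposited value lies near the log2 ratio of group means. For SNORD35A those means were 10.9 normalised reads in the controls and 18.3 in the knockdowns, from 36.6 in knockdown A and 0 in knockdown B. The cause of that difference between the knockdown libraries was not tested. Depth limits rows near the minimum of 5, which rest on a few reads per library.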

Other observations

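The 60 SNORD rows with means above 0 and below 5 normalised reads, which are outside the 98, held 103 reads in control A, 79 in control B, 188 in knockdown A and 65 in knockdown B. Their summed levels were 83.7, 86.1, 172 and 79.9 normalised reads in that order, so knockdown A was again the highest library and knockdown B the lowest. Of the 60, 42 were above 0 and 18 below in the authors' deposited table.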
